A study of Sus scrofa with 19 samples.

Results

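The 41 genes described here make up a list of cell cycle and mitosis genes that were selected by name, by a rule that uses no measured value, though with earlier results of these data known. Of these, 39 were found by symbol in the expression table of the authors and linked by Ensembl identifier to the raw count files, and all 39 were among the 13552 genes tested of the 25879 genes in those files. MCM5, a subunit of the replicative helicase, had 0 counts in each of the 19 libraries, where a count of 0 allows up to 3 counts. The expression of CCNA2, the S phase and G2 cyclin, was not analysed here, and its promoter window counts among those below. By role the list held 9 genes of DNA replication, 11 genes of mitotic control, 6 genes of the spindle checkpoint and kinetochore, 9 spindle motors, microtubule factors and cytokinesis genes, and 6 genes of chromosome structure.

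RNA from the myocardium of 19 pigs labelled female large white was sequenced, with 1 library per pig. DOX pigs (n = 5) received 60 mg/m2 of doxorubicin in each of 3 cycles, and MYO pigs (n = 5) received the liposomal formulation Myocet at the same dose and number of cycles, and the anterior wall was sampled at 3 months in both groups. RemoLV pigs (n = 3) had a reperfused infarction after 90 min of coronary occlusion, and the remote posterior wall was sampled at 6 months. Hyper pigs (n = 3) had a stenosis of the aortic isthmus and Control pigs (n = 3) were sham-operated according to the labels and untreated according to the methods of the study, and the anterior wall was sampled at 6 months in both groups. Data for DOX and MYO came from a previous experiment of the same group. Treatment, follow-up time, experiment and the Y-linked expression described below therefore cannot be told apart for these 10 libraries.

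Cells that divide copy their DNA once, condense and separate the chromosomes, and then split. The E2F factors switch on genes of DNA replication, and the MuvB complex with MYBL2 and FOXM1 switches on genes of mitosis, so that transcripts of both classes mark dividing cells. Adult cardiomyocytes have largely left the cell cycle, and much of the dividing compartment of the adult heart consists of fibroblasts, endothelial cells and leukocytes. Doxorubicin poisons type II topoisomerases, of which TOP2A is the form of dividing cells.

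The names of the libraries conflict. When genes were ranked by level, each of the 19 expression columns of the authors' table had the ranking of exactly 1 count file, and for 8 columns the group in the column name was not the group in the file's label. Control and RemoLV are swapped as a whole between both sources, and so are the libraries labelled DOX replicate 5 and MYO replicate 1. Group names below are those of the count files. Counts of members under the names of the table are given for each comparison and values for some members, whereas pathway and marker lists were counted by count file label alone. The libraries labelled RemoLV held the atrial light chain MYL4 at 6029 to 8130 CPM, against at most 21.9 CPM in the other 16. Another listed atrial marker, the light chain MYL7, was at 3281 to 4770 CPM in them, but also at 1080 to 2379 CPM in DOX, 736 to 1193 CPM in MYO and 172 to 1229 CPM in Hyper, against 59.1 to 111 CPM in Control. The libraries labelled RemoLV held the ventricular light chain MYL2 at 18.6 to 115 CPM, against at least 8975 CPM in the others. The ventricular factor IRX4 reached at most 0.178 CPM in them. The other ventricular markers were lower but not absent, with MYH7 at 22350 to 25990 CPM and MYL3 at 2057 to 3030 CPM, and all 5 listed were lower than in Control. The Y-linked gene DDX3Y stood between 96.1 and 177 CPM in all 10 libraries of DOX and MYO, against no more than 0.137 CPM in the 9 others, although all pigs were labelled female. Each comparison of DOX or MYO with Control or Hyper therefore also runs along this difference.

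Because most members of the list move together across libraries, the 300 bases around the start sites of members were searched for the letters of elements known from cell cycle promoters. The windows (250 bases before and 50 after, Sscrofa11.1, RefSeq) were searched on both strands. Of the 40 members with such a window, 18 (45.0%) held the letters TTTGAA or TTCGAA of the cell cycle homology region (CHR), bound by MuvB, against 15.6% of 19531 promoters of protein-coding genes. The letters CCAAT, bound by NF-Y, stood in 30 members (75.0%) against 35.4% of all promoters. One of the E2F-like strings TTTCGCGC, TTTGGCGC, TTTCCCGC, TTTGGCGG or TTTCCCGG stood in 9 members (22.5%) against 4.95%, and some of these strings overlap each other. CHR letters and CCAAT letters stood together in 15 members (37.5%) against 6.14% of all promoters. A match describes letters and is not evidence of binding in these tissues. The windows of 3 genes that were higher in DOX and MYO than in Hyper, the mitotic genes MKI67 and TOP2A and the replication gene TYMS, are printed 5′ to 3′ on the coding strand, with matched letters in capitals.
MKI67, chr14:137296263-137296562, minus strand: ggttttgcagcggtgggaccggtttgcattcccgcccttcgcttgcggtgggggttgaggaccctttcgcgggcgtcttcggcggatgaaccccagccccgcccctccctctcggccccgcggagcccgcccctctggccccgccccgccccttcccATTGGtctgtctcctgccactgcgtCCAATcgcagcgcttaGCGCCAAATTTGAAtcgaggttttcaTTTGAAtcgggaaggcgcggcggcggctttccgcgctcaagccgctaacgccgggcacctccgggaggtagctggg
TOP2A, chr12:22001050-22001349, plus strand: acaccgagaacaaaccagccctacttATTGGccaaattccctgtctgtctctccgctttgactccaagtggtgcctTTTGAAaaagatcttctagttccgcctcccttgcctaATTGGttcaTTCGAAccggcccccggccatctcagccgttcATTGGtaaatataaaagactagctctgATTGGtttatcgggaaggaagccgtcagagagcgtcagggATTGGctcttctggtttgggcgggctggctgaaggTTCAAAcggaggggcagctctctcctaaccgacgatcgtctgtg
TYMS, chr6:105660230-105660529, minus strand: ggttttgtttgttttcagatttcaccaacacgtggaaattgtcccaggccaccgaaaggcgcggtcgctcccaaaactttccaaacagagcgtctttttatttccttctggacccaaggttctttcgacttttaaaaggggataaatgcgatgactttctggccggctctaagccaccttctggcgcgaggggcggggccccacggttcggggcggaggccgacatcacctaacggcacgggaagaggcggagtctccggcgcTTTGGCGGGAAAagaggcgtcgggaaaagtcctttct
MKI67 carried the letters of all 3 elements, CHR and CCAAT and E2F-like. So did MCM6, CDK1, KIF11, KIF23 and SMC4. Of these, CDK1 was called in no comparison by count file label, and SMC4 was lower in DOX, MYO and RemoLV than in Control. TOP2A carried 3 CHR and 5 CCAAT matches. TYMS carried overlapping E2F-like matches and neither of the other elements.

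All members together were expressed at a low level. Their summed level had a mean of 191.8 CPM in Control (SD 10.1, n = 3), close to the 192.5 CPM of Hyper (SD 21.8, n = 3), although on raw library totals these means were 153.3 and 172.7 CPM. The mean was 235.9 CPM in MYO (SD 29.9, n = 5), 241.1 CPM in RemoLV (SD 77.5, n = 3) and 294.7 CPM in DOX (SD 63.0, n = 5). CPM is the count of a gene relative to the library size, which was scaled by the TMM method. The 19 libraries had between 9527710 and 20370209 counts on genes, of which 1928 to 6088 fell on the members, and 9 members had fewer than 10 counts in at least 1 library. In a bulk sample, fewer dividing cells and less of these transcripts per dividing cell cannot be told apart.

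The pattern ran through nearly the whole list within single libraries. Of the 39 members, 38, 35, 34, 37 and 15 in the DOX libraries, in the order of the replicates, stood above their own mean over the 19 libraries. In MYO these numbers were 26, 22, 9, 32 and 35, and in RemoLV they were 36, 23 and 6. In Hyper they were 5, 5 and 16, and in Control 5, 5 and 4. DOX replicate 5, which the table names as a MYO library, and MYO replicate 3 were thus the low libraries of their groups, RemoLV spanned almost the whole range, and Hyper replicate 3 stood apart from the other two.

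**Figure D1:**
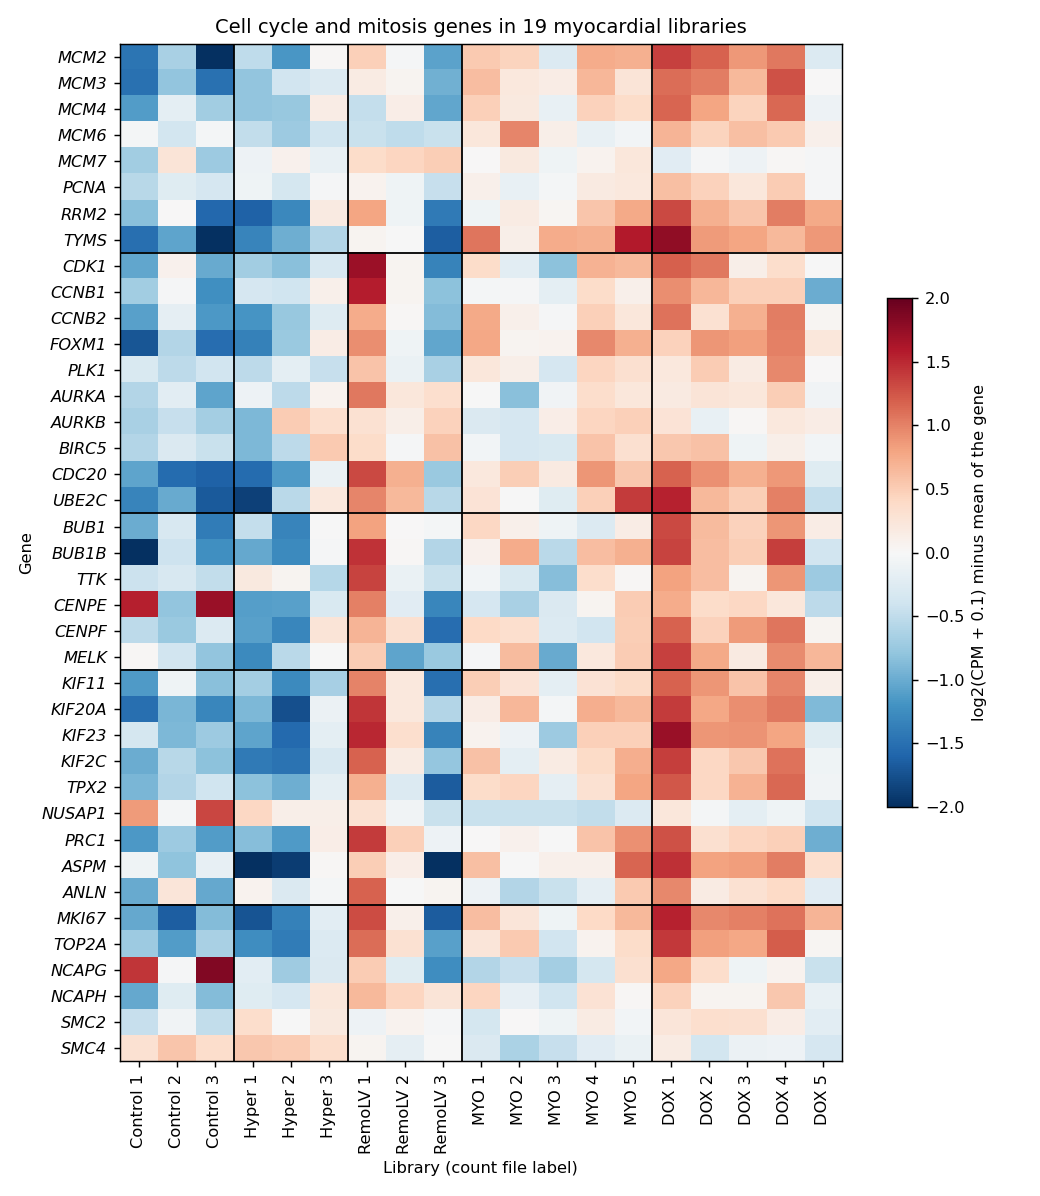
Level of the 39 members (rows, ordered by role) in the 19 libraries (columns, by count file label) as log2(CPM + 0.1) minus the mean of the gene. Red cells fill most of DOX replicate 1 (38 of 39 members above their mean) and RemoLV replicate 1 (36 of 39), blue cells fill most of Control, and CENPE, NCAPG and NUSAP1 are red in Control replicates 1 and 3.

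With the labels of the count files, 28 of the 39 members were higher and 3 lower in DOX than in Control at an adjusted p of at most 0.05 (quasi-likelihood test of edgeR, adjusted by Benjamini and Hochberg over all genes tested), where 21.0% of all genes were higher and 21.1% lower. The median log2 fold change of the members was 1.36, against 0.03 over all genes tested. In MYO 18 members were higher and 4 lower (all genes 20.7% and 21.7%), with a median of 0.80 against 0.02. In RemoLV 18 were higher and 3 lower (all genes 23.1% and 24.0%), with a median of 0.95 against 0.02. With RemoLV and Control alone in the fit, fewer members were called in both directions, as given in the last section. In Hyper none of the 39 passed (all genes 0% in both directions), with a median of 0.22 against 0.01, while before adjustment 4 members had a p under 0.05 upwards and 3 downwards, against 8.29% and 9.55% of all genes. DESeq2 called 0 members higher and 2 lower in Hyper, against 0.570% and 1.07% of all genes. The lower shares in DOX, MYO and RemoLV lay below the share of all genes and the higher shares above it. These 4 comparisons use the same 3 Control libraries.

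An at least 4-fold change was rarer. In DOX 8 members were at least 4-fold higher (all genes 1.59%), namely MCM2, MCM3, TYMS, FOXM1, CDC20, UBE2C, KIF20A and MKI67. In MYO TYMS alone was (all genes 1.23%), and in RemoLV CDC20 alone was (all genes 4.12%). Under the names of the expression table no member was at least 4-fold higher in DOX, MYO or RemoLV than in Control.

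These counts depended on the names. In the expression table the name Control belongs to the 3 libraries labelled RemoLV in the count files. These libraries held the atrial markers given above and had 36, 23 and 6 members above their mean. Under the names of the expression table, 6 members were higher and 1 lower in DOX than in Control (all genes 15.0% and 14.6%), 2 higher and 0 lower in MYO (all genes 14.8% and 14.4%), 3 higher and 19 lower in RemoLV (all genes 24.0% and 23.2%), and 1 higher and 7 lower in Hyper (all genes 18.7% and 17.2%). The 6 members higher in DOX under both sets of names were MCM2, MCM3, MCM4, MCM6, PCNA and TYMS, which all serve DNA replication, and TYMS was the one member higher in MYO under both. No mitotic gene of the list was called higher than Control in DOX or MYO under the names of the table. The 3 members higher in RemoLV under those names were NUSAP1, NCAPG and SMC4, and SMC4 was also the one higher in Hyper. By the exchange of both groups, Hyper against Control under those names sets the same libraries against each other as Hyper against RemoLV by count file label.

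Setting DOX and MYO together against Hyper uses the same 13 libraries under both sets of names. In it 20 members were higher and 1 lower (all genes 15.8% and 16.9%), with a median log2 fold change of 1.03 against 0.03 over all genes, and the same 20 were among the 21 higher under the names of the table (1 lower, all genes 15.8% and 16.9%). The 20 were MCM2, MCM3, MCM4, MCM6, PCNA, RRM2, TYMS, CCNB2, FOXM1, CDC20, BUB1, BUB1B, KIF11, KIF20A, KIF23, KIF2C, TPX2, ASPM, MKI67 and TOP2A, and SMC4 was the member that fell. The number higher rested on the Hyper libraries, with 4 without Hyper replicate 1, 6 without Hyper replicate 2 and 24 without Hyper replicate 3. Of the 20, only MCM3, MCM6 and TYMS passed in each of the 19 fits that left out 1 library.

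**Figure D2:**
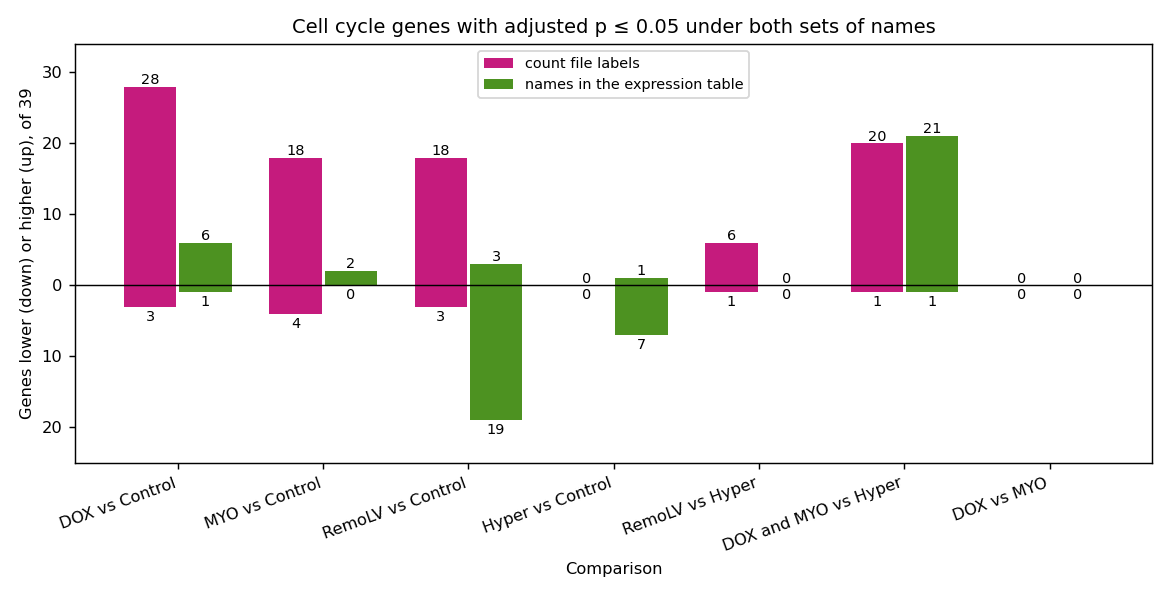
Number of the 39 members higher (bars up) or lower (bars down) at an adjusted p of at most 0.05 in each comparison, with libraries grouped by count file label or by the names of the expression table. The number higher in DOX vs Control is 28 under one set of names and 6 under the other, while DOX and MYO vs Hyper gives 20 and 21.

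Leaving out single libraries showed which calls against Control held. Of the 28 members higher in DOX, 18 passed in each of the 19 such fits, and the number higher lay between 20 (without Control replicate 3) and 31. Of the 18 higher in MYO, 6 passed in each fit (MCM2, MCM3, TYMS, FOXM1, CDC20 and KIF20A), and the number fell to 7 without Control replicate 3, 8 without Control replicate 1, 9 without MYO replicate 4 and 11 without MYO replicate 5. Of the 18 higher in RemoLV, 4 passed in each fit (MCM7, AURKA, CDC20 and NCAPH), and the number fell to 5 without RemoLV replicate 1, 7 without Control replicate 3 and 8 without Control replicate 1.

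**Figure D3:**
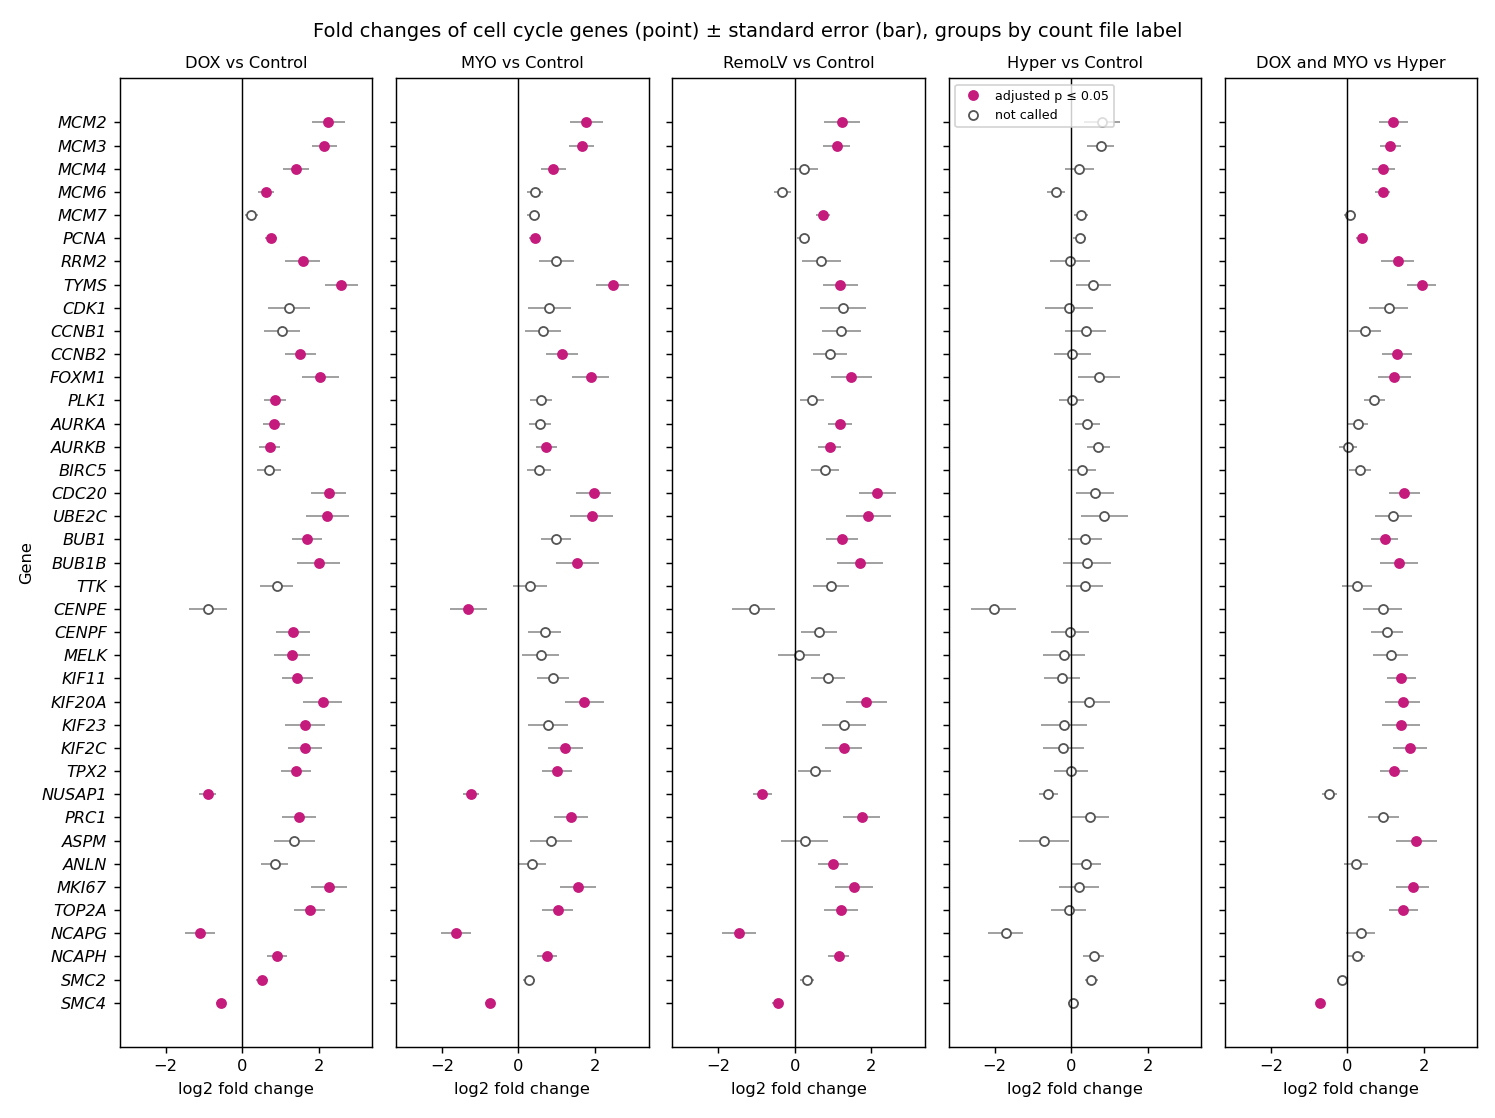
Log2 fold change (point) and standard error (bar) of the 39 members in 5 comparisons, with groups by count file label and filled points for an adjusted p of at most 0.05. Most members lie to the right of 0 in DOX, MYO and RemoLV vs Control (medians 1.36, 0.80 and 0.95) and around 0 in Hyper vs Control (median 0.22), while CENPE, NUSAP1, NCAPG and SMC4 lie to the left in the first 3 panels.

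The counts by role that follow are set against the shares of all genes, which were 21.0% higher and 21.1% lower in DOX, 20.7% and 21.7% in MYO and 23.1% and 24.0% in RemoLV against Control, and 15.8% and 16.9% in DOX and MYO against Hyper. Of the 8 tested genes of DNA replication, 7 were higher and none lower in DOX than in Control, 5 were higher in MYO, 4 in RemoLV, and 7 in DOX and MYO than in Hyper. TYMS makes thymidylate, the DNA-specific nucleotide, and had 1.79, 2.49 and 1.13 CPM in Control, 2.06, 2.63 and 3.49 CPM in Hyper, 5.49, 5.25 and 1.60 CPM in RemoLV, 11.2, 5.75, 8.89, 8.66 and 16 CPM in MYO and 18.2, 9.58, 9.2, 8.31 and 9.75 CPM in DOX. Every DOX and MYO library stood above every Control and Hyper library, whereas RemoLV replicate 3 lay within the Control range. TYMS had the largest log2 fold change of the list in DOX, 2.59 (SE 0.42, adjusted p = 0.000151) against Control, and in MYO it was 2.46 (SE 0.42, adjusted p = 0.000225). In DOX and MYO against Hyper the log2 fold change of TYMS was 1.94 (SE 0.38, adjusted p = 0.00091), and in RemoLV it was 1.19 (SE 0.45, adjusted p = 0.0379), a call lost without RemoLV replicate 1 or 2 or Control replicate 1 or 3.

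MCM2 to MCM7 form the helicase that is loaded at replication origins. MCM2 had 1.27, 2.32 and 0.846 CPM in Control, 2.54, 1.58 and 3.75 CPM in Hyper, 5.14, 3.61 and 1.69 CPM in RemoLV, 5.31, 5.06, 3.03, 6.23 and 6.09 CPM in MYO and 9.61, 8.48, 6.80, 7.76 and 3.02 CPM in DOX. The DOX and MYO libraries all exceeded Control, but DOX replicate 5 and MYO replicate 3 fell within the Hyper range. Its log2 fold change was 2.25 (SE 0.44, adjusted p = 0.000636) in DOX, 1.77 (SE 0.44, adjusted p = 0.00353) in MYO and 1.20 (SE 0.38, adjusted p = 0.0224) in DOX and MYO against Hyper, the last lost without Hyper replicate 1 or 2. MCM3 rose by a similar amount, 2.15 (SE 0.32, adjusted p = 7.37e-05) in DOX and 1.65 (SE 0.32, adjusted p = 0.000646) in MYO. MCM3 had 1.27, 2.14 and 1.27 CPM in Control, 2.13, 2.86 and 3.08 CPM in Hyper, 4.22, 3.89 and 1.87 CPM in RemoLV, 5.78, 4.36, 4.16, 5.97 and 4.48 CPM in MYO and 8.24, 7.72, 5.93, 9.23 and 3.78 CPM in DOX. Each DOX and MYO library exceeded each Control and Hyper library, and its call in DOX and MYO against Hyper, 1.13 (SE 0.28, adjusted p = 0.0057), was kept in all 19 fits without 1 library.

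The subunits of this helicase did not move alike. MCM6 had 13.2, 10.5 and 13.3 CPM in Control, 9.62, 8.20 and 10.3 CPM in Hyper, 9.99, 9.59 and 9.98 CPM in RemoLV, 15.9, 26.7, 14.8, 12.3 and 13 CPM in MYO and 22.0, 18.5, 20.8, 19.6 and 14.5 CPM in DOX, and its log2 fold change was 0.63 (SE 0.21, adjusted p = 0.0207) in DOX, 0.93 (SE 0.20, adjusted p = 0.00166) in DOX and MYO against Hyper, and -0.32 (SE 0.23, adjusted p = 0.265) in RemoLV. The DOX call was lost without Control replicate 2. MCM7 had 13.7, 26.6 and 13.5 CPM in Control, 20.8, 23.6 and 20.0 CPM in Hyper, 28.9, 30.1 and 31.4 CPM in RemoLV, 22.3, 25.5, 21.0, 23.3 and 26.1 CPM in MYO and 19.0, 22.0, 20.7, 22.6 and 21.9 CPM in DOX. It was higher in RemoLV, with a log2 fold change of 0.74 (SE 0.19, adjusted p = 0.00362), and not called in DOX, at 0.24 (SE 0.17, adjusted p = 0.27). Control replicate 2 stood above every DOX library and Control replicates 1 and 3 below every DOX library. With the table names MCM7 was the member lower in DOX than in Control, at -0.50 (SE 0.17, adjusted p = 0.0314).

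PCNA, the sliding clamp of the replication fork, had 15.0, 18.6 and 17.4 CPM in Control, 20.8, 17.2 and 21.5 CPM in Hyper, 23.0, 20.8 and 15.9 CPM in RemoLV, 23.5, 19.7, 21.4, 25.0 and 25.6 CPM in MYO and 33.3, 30.4, 25.7, 31.4 and 21.6 CPM in DOX. All DOX libraries and all MYO libraries exceeded all Control libraries, and the step was small, with a log2 fold change of 0.74 (SE 0.15, adjusted p = 0.00104) in DOX and 0.44 (SE 0.15, adjusted p = 0.0282) in MYO, the latter lost without MYO replicate 4 or 5 or Control replicate 1 or 3. RRM2, the regulated subunit of ribonucleotide reductase, had a log2 fold change of 1.58 (SE 0.46, adjusted p = 0.0115) in DOX and 0.99 (SE 0.46, adjusted p = 0.0923) in MYO. RRM2 had 2.31, 4.22 and 1.34 CPM in Control, 1.30, 1.66 and 4.76 CPM in Hyper, 7.32, 3.95 and 1.51 CPM in RemoLV, 3.96, 4.71, 4.30, 6.23 and 7.19 CPM in MYO and 10.7, 6.95, 6.20, 8.62 and 7.14 CPM in DOX. All DOX libraries exceeded Control, and MYO replicate 1 lay within the Control range. The DOX call was lost without Control replicate 3.

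MCM4 had 2.46, 4.75 and 3.31 CPM in Control, 3.09, 3.16 and 6.03 CPM in Hyper, 3.87, 5.98 and 2.58 CPM in RemoLV, 7.61, 6.24, 4.87, 7.53 and 7.02 CPM in MYO and 12.4, 9.41, 7.46, 12.2 and 5.04 CPM in DOX. All DOX and MYO libraries exceeded Control, if only just in MYO replicate 3 and DOX replicate 5. MCM4 was higher by 1.40 (SE 0.34, adjusted p = 0.00305) on the log2 scale in DOX and by 0.91 (SE 0.33, adjusted p = 0.0353) in MYO, the latter lost without MYO replicate 1, 4 or 5 or Control replicate 1 or 3.

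**Figure D4:**
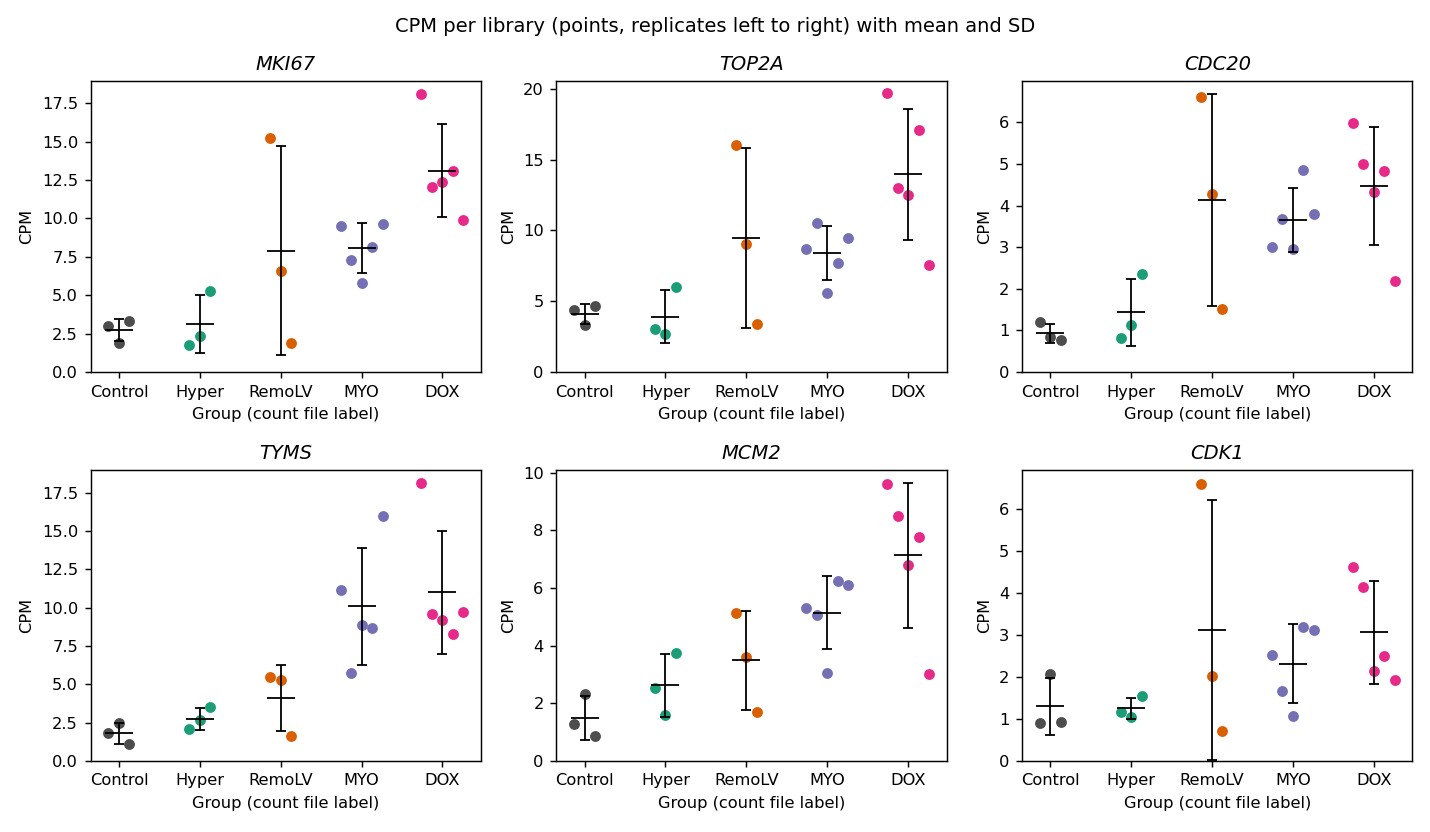
CPM of MKI67, TOP2A, CDC20, TYMS, MCM2 and CDK1 in each library (points, replicates from left to right) with the group mean and SD (black), groups by count file label. MKI67 stands at 9.91 CPM or more in DOX and at 3.31 CPM or less in Control, while RemoLV runs from 1.87 to 15.3 CPM.

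Among the 10 tested genes of mitotic control, 7 were higher in DOX than in Control, 5 each in MYO and RemoLV, and 3 when DOX and MYO were set against Hyper, and none was lower in any comparison under the count file labels. CDC20 activates the anaphase-promoting complex and had 1.19, 0.831 and 0.776 CPM in Control, 0.825, 1.13 and 2.35 CPM in Hyper, 6.62, 4.29 and 1.51 CPM in RemoLV, 3.01, 3.67, 2.96, 4.85 and 3.81 CPM in MYO and 5.99, 5.00, 4.33, 4.83 and 2.19 CPM in DOX. Its log2 fold change was 2.26 (SE 0.45, adjusted p = 0.000782) in DOX, 1.96 (SE 0.45, adjusted p = 0.00219) in MYO and 2.16 (SE 0.48, adjusted p = 0.00134) in RemoLV, and all 3 calls were kept in every fit that left out 1 library. Against Hyper, CDC20 was higher in DOX and MYO by 1.49 (SE 0.40, adjusted p = 0.00853) on the log2 scale, a call lost without Hyper replicate 1, and DOX replicate 5 lay within the Hyper range.

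UBE2C, the ubiquitin-conjugating enzyme of the same complex, had 0.746, 0.95 and 0.564 CPM in Control, 0.481, 1.35 and 2.35 CPM in Hyper, 4.08, 3.21 and 1.34 CPM in RemoLV, 2.46, 2.01, 1.69, 2.86 and 5.50 CPM in MYO and 6.05, 3.22, 2.87, 4.16 and 1.43 CPM in DOX. All DOX and MYO libraries exceeded all Control libraries, and Hyper spread from below the Control range to within the MYO range. For UBE2C the log2 fold change was 2.22 (SE 0.56, adjusted p = 0.0043) in DOX, 1.91 (SE 0.56, adjusted p = 0.0109) in MYO and 1.93 (SE 0.60, adjusted p = 0.0135) in RemoLV, the second lost without Control replicate 3 and the third without that library or RemoLV replicate 1. FOXM1, the factor that drives the late cell cycle genes, had 0.299, 0.772 and 0.353 CPM in Control, 0.412, 0.677 and 1.34 CPM in Hyper, 2.39, 1.13 and 0.535 CPM in RemoLV, 2.14, 1.25, 1.27, 2.42 and 2.03 CPM in MYO and 1.69, 2.29, 2.20, 2.51 and 1.43 CPM in DOX. It was higher by 2.04 (SE 0.49, adjusted p = 0.00302) on the log2 scale in DOX and by 1.88 (SE 0.49, adjusted p = 0.00527) in MYO, and every library of these groups exceeded every Control library. Its call in RemoLV, 1.48 (SE 0.53, adjusted p = 0.0296), was lost without RemoLV replicate 1 or Control replicate 1 or 3.

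CDK1 and its partner CCNB1, the kinase that starts mitosis, were called in no comparison by count file label. CDK1 had 0.896, 2.08 and 0.917 CPM in Control, 1.17, 1.05 and 1.54 CPM in Hyper, 6.62, 2.03 and 0.713 CPM in RemoLV, 2.54, 1.66, 1.06, 3.20 and 3.13 CPM in MYO and 4.62, 4.16, 2.13, 2.51 and 1.93 CPM in DOX. For CDK1 the log2 fold change was 1.22 (SE 0.55, adjusted p = 0.0838) in DOX, 1.25 (SE 0.60, adjusted p = 0.0937) in RemoLV and 1.07 (SE 0.52, adjusted p = 0.119) in DOX and MYO against Hyper. RemoLV replicate 1 held the highest value of all, RemoLV replicate 3 the lowest, and Control replicate 2 lay within the DOX range. CCNB1 had 1.27, 2.08 and 0.846 CPM in Control, 1.65, 1.58 and 2.28 CPM in Hyper, 6.47, 2.20 and 1.16 CPM in RemoLV, 2.06, 2.08, 1.83, 2.77 and 2.28 CPM in MYO and 4.12, 3.39, 3.00, 3.00 and 1.01 CPM in DOX. Its log2 fold change was 1.04 (SE 0.47, adjusted p = 0.084) in DOX and 0.64 (SE 0.48, adjusted p = 0.294) in MYO, and the groups overlapped. In RemoLV it was 1.22 (SE 0.52, adjusted p = 0.0596), and with the table names CCNB1 was called lower in RemoLV, at -1.22 (SE 0.49, adjusted p = 0.0492). CCNB2, the other mitotic B cyclin, had 0.522, 1.07 and 0.494 CPM in Control, 0.481, 0.677 and 1.01 CPM in Hyper, 2.11, 1.24 and 0.624 CPM in RemoLV, 2.14, 1.32, 1.20, 1.73 and 1.44 CPM in MYO and 2.68, 1.53, 2.07, 2.57 and 1.26 CPM in DOX. In contrast to CCNB1, all DOX and MYO libraries exceeded all Control and Hyper libraries. CCNB2 was higher in DOX by 1.52 (SE 0.41, adjusted p = 0.00694) and in DOX and MYO against Hyper by 1.29 (SE 0.38, adjusted p = 0.0154) on the log2 scale, the latter lost without Hyper replicate 1 or 2.

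PLK1, a mitotic kinase that acts at centrosomes and kinetochores, had 1.94, 1.66 and 1.83 CPM in Control, 1.65, 2.11 and 1.74 CPM in Hyper, 3.66, 2.20 and 1.51 CPM in RemoLV, 2.85, 2.63, 1.90, 3.29 and 3.05 CPM in MYO and 2.81, 3.48, 2.73, 4.83 and 2.44 CPM in DOX. Each DOX library exceeded each Control library, and the log2 fold change was 0.85 (SE 0.29, adjusted p = 0.0258). With the table names PLK1 was also higher in DOX and MYO against Hyper, at 0.70 (SE 0.26, adjusted p = 0.0473). AURKA, the spindle pole kinase, had 2.09, 2.73 and 1.48 CPM in Control, 2.95, 2.18 and 3.35 CPM in Hyper, 6.69, 3.72 and 4.01 CPM in RemoLV, 3.17, 1.73, 3.03, 4.07 and 3.72 CPM in MYO and 3.62, 3.82, 3.73, 4.52 and 3.02 CPM in DOX. All RemoLV libraries exceeded all Control and Hyper libraries. The log2 fold change of AURKA was 1.18 (SE 0.32, adjusted p = 0.00499) in RemoLV and 0.83 (SE 0.29, adjusted p = 0.0286) in DOX. AURKB, the kinase of the chromosomal passenger complex, had 2.39, 2.73 and 2.33 CPM in Control, 1.99, 5.42 and 4.83 CPM in Hyper, 4.71, 4.12 and 5.26 CPM in RemoLV, 3.09, 2.98, 4.16, 5.11 and 5.33 CPM in MYO and 4.62, 3.39, 3.87, 4.40 and 4.20 CPM in DOX. Hyper replicates 2 and 3 were as high as the RemoLV libraries. AURKB was higher in DOX by 0.72 (SE 0.28, adjusted p = 0.0457) on the log2 scale, and this call was lost in 11 of the 19 fits without 1 library. The PLK1 call in DOX was lost without DOX replicate 4 or any Control replicate, and the AURKA call in DOX without DOX replicate 4 or Control replicate 1 or 3. BIRC5, a subunit of the passenger complex, was called in no comparison. It had 1.72, 2.14 and 1.90 CPM in Control, 1.37, 1.81 and 3.82 CPM in Hyper, 3.45, 2.59 and 4.01 CPM in RemoLV, 2.54, 2.08, 2.12, 3.98 and 3.30 CPM in MYO and 3.87, 3.99, 2.47, 2.87 and 2.52 CPM in DOX. The DOX libraries all exceeded Control, with a log2 fold change of 0.70 (SE 0.32, adjusted p = 0.0861).

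Of the 6 genes of the spindle checkpoint and kinetochore, 4 were higher in DOX than in Control, 1 in MYO and 2 in RemoLV, and 2 when DOX and MYO were set against Hyper. In MYO 1 was lower. The share of 1 in 6 in MYO lay below that of all genes in both directions (20.7% and 21.7%). BUB1B, a subunit of the mitotic checkpoint complex, had 0.373, 1.31 and 0.705 CPM in Control, 0.825, 0.677 and 1.74 CPM in Hyper, 5.00, 1.80 and 1.16 CPM in RemoLV, 1.90, 3.05, 1.20, 2.77 and 2.96 CPM in MYO and 4.68, 2.80, 2.53, 4.83 and 1.34 CPM in DOX. For BUB1B the log2 fold change was 2.0 (SE 0.56, adjusted p = 0.00829) in DOX and 1.54 (SE 0.56, adjusted p = 0.0334) in MYO, the latter lost without MYO replicate 2, 4 or 5 or Control replicate 1 or 3. BUB1, the checkpoint kinase, had 0.597, 1.01 and 0.423 CPM in Control, 0.893, 0.452 and 1.27 CPM in Hyper, 2.32, 1.30 and 1.25 CPM in RemoLV, 1.74, 1.39, 1.20, 1.04 and 1.44 CPM in MYO and 3.37, 2.04, 1.80, 2.44 and 1.43 CPM in DOX. All DOX, MYO and RemoLV libraries exceeded Control. For BUB1 the log2 fold change was 1.69 (SE 0.39, adjusted p = 0.0024) in DOX and 0.98 (SE 0.40, adjusted p = 0.0534) in MYO, where it was not called.

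CENPF, a kinetochore protein, had 1.87, 1.60 and 2.26 CPM in Control, 1.24, 1.05 and 3.29 CPM in Hyper, 4.43, 3.44 and 0.891 CPM in RemoLV, 3.64, 3.46, 2.26, 2.08 and 3.89 CPM in MYO and 6.30, 3.82, 5.00, 5.87 and 2.86 CPM in DOX. DOX exceeded Control in every library, and RemoLV replicate 3 held the lowest value of all. CENPF was higher in DOX at 1.33 (SE 0.44, adjusted p = 0.0218), lost without Control replicate 1 or 2. MELK, a kinase of dividing cells, had 0.821, 0.594 and 0.423 CPM in Control, 0.275, 0.527 and 0.805 CPM in Hyper, 1.20, 0.338 and 0.446 CPM in RemoLV, 0.792, 1.32, 0.353, 0.952 and 1.19 CPM in MYO and 2.25, 1.44, 0.933, 1.65 and 1.34 CPM in DOX. DOX was above Control in every library, by little in DOX replicate 3. MELK was higher in DOX at 1.31 (SE 0.47, adjusted p = 0.0333), lost without DOX replicate 1 or 4 or Control replicate 2 or 3. The checkpoint kinase TTK was called in no comparison and had 1.27, 1.37 and 1.20 CPM in Control, 1.99, 1.81 and 1.14 CPM in Hyper, 4.57, 1.58 and 1.25 CPM in RemoLV, 1.66, 1.39, 0.917, 2.25 and 1.78 CPM in MYO and 3.12, 2.71, 1.80, 3.30 and 1.01 CPM in DOX. DOX replicate 5 lay below Control, and the log2 fold change was 0.90 (SE 0.44, adjusted p = 0.103) in DOX.

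Of the 9 spindle motors, microtubule factors and cytokinesis genes, 6 were higher and 1 lower in DOX, 4 higher and 1 lower in MYO, 4 higher and 1 lower in RemoLV, and 6 higher in DOX and MYO against Hyper, where 15.8% of all genes were higher. KIF20A, a kinesin of the central spindle, had 1.27, 1.96 and 1.48 CPM in Control, 1.99, 1.05 and 3.49 CPM in Hyper, 10.4, 4.40 and 2.50 CPM in RemoLV, 4.20, 6.03, 3.67, 6.32 and 6.01 CPM in MYO and 10.1, 6.53, 7.33, 7.95 and 2.02 CPM in DOX. For KIF20A the log2 fold change was 2.10 (SE 0.50, adjusted p = 0.00305) in DOX, 1.72 (SE 0.50, adjusted p = 0.0107) in MYO and 1.87 (SE 0.54, adjusted p = 0.0085) in RemoLV, the last lost without RemoLV replicate 1. KIF2C, a kinesin that takes microtubules apart at centromeres, had 0.672, 0.95 and 0.776 CPM in Control, 0.481, 0.452 and 1.14 CPM in Hyper, 3.38, 1.64 and 0.802 CPM in RemoLV, 2.22, 1.25, 1.62, 1.90 and 2.45 CPM in MYO and 3.93, 1.95, 2.13, 3.18 and 1.34 CPM in DOX. No DOX or MYO library overlapped with Control or Hyper. In DOX and MYO against Hyper its log2 fold change was 1.64 (SE 0.44, adjusted p = 0.00831), lost without Hyper replicate 1 or 2.

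PRC1, the crosslinker of the central spindle, had 1.94, 2.61 and 1.98 CPM in Control, 2.40, 1.96 and 4.83 CPM in Hyper, 11.8, 6.15 and 4.10 CPM in RemoLV, 4.44, 4.71, 4.37, 6.58 and 8.38 CPM in MYO and 10.8, 5.51, 6.00, 6.17 and 2.19 CPM in DOX. For PRC1 the log2 fold change was 1.75 (SE 0.48, adjusted p = 0.00615) in RemoLV and 1.37 (SE 0.45, adjusted p = 0.0196) in MYO, and 1.49 (SE 0.45, adjusted p = 0.0125) in DOX, where DOX replicate 5 lay within the Control range. The calls were lost without RemoLV replicate 1, without Control replicate 1 or 3, and without Control replicate 3, in this order.

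KIF11, the motor that separates the spindle poles, had 1.42, 3.03 and 1.76 CPM in Control, 1.99, 1.28 and 2.01 CPM in Hyper, 6.54, 3.78 and 1.07 CPM in RemoLV, 4.59, 3.95, 2.82, 3.98 and 4.23 CPM in MYO and 7.49, 6.02, 4.87, 6.48 and 3.53 CPM in DOX. All DOX libraries exceeded all Control and Hyper libraries, and MYO replicate 3 lay within the Control range. KIF11 was higher in DOX at 1.44 (SE 0.41, adjusted p = 0.00899) and in DOX and MYO against Hyper at 1.41 (SE 0.39, adjusted p = 0.00966), the latter lost without Hyper replicate 2. TPX2, a spindle assembly factor, had 3.21, 4.10 and 4.66 CPM in Control, 3.44, 3.09 and 5.36 CPM in Hyper, 10.1, 5.08 and 1.87 CPM in RemoLV, 8.0, 8.31, 5.43, 7.62 and 10.8 CPM in MYO and 14.7, 8.23, 10.1, 13.9 and 5.88 CPM in DOX. Every DOX and MYO library exceeded every Control and Hyper library. TPX2 was higher in DOX at 1.41 (SE 0.40, adjusted p = 0.00927) and in DOX and MYO against Hyper at 1.21 (SE 0.37, adjusted p = 0.018), the latter lost without Hyper replicate 1 or 2. KIF23, a kinesin of cytokinesis, had 1.87, 1.25 and 1.41 CPM in Control, 1.10, 0.753 and 2.08 CPM in Hyper, 7.04, 3.04 and 0.891 CPM in RemoLV, 2.54, 2.22, 1.41, 3.38 and 3.38 CPM in MYO and 8.18, 4.50, 4.53, 4.22 and 2.02 CPM in DOX. DOX replicate 1 held the highest value and DOX replicate 5 one close to Control. KIF23 was higher in DOX at 1.64 (SE 0.53, adjusted p = 0.0191), lost without Control replicate 2 or 3.

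ASPM, a spindle pole protein with as few as 2 counts in a library, had 1.04, 0.594 and 0.987 CPM in Control, 0.206, 0.226 and 1.14 CPM in Hyper, 1.62, 1.24 and 0.178 CPM in RemoLV, 1.74, 1.11, 1.20, 1.21 and 2.62 CPM in MYO and 3.25, 2.04, 2.07, 2.38 and 1.43 CPM in DOX. Hyper replicates 1 and 2 stood far below Hyper replicate 3. ASPM was higher in DOX and MYO against Hyper alone, at 1.80 (SE 0.54, adjusted p = 0.0165), lost without Hyper replicate 1 or 2. ANLN, the scaffold of the cleavage furrow, had 3.58, 8.61 and 3.53 CPM in Control, 7.70, 5.95 and 7.11 CPM in Hyper, 16.7, 7.28 and 7.58 CPM in RemoLV, 6.81, 4.85, 5.36, 6.41 and 10.5 CPM in MYO and 14.3, 8.23, 9.00, 9.66 and 6.22 CPM in DOX. Control replicate 2 exceeded RemoLV replicates 2 and 3. ANLN was higher in RemoLV alone, at 0.99 (SE 0.39, adjusted p = 0.0434), a call lost in 8 of the 19 fits without 1 library, among them that without RemoLV replicate 1.

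In the group of chromosome structure, 4 of 6 genes were higher and 2 lower in DOX, 3 higher and 2 lower in MYO, 3 higher and 2 lower in RemoLV, and 2 higher and 1 lower in DOX and MYO against Hyper, where the single lower gene of 6 was close to the 16.9% of all genes. MKI67, the Ki-67 antigen that coats mitotic chromosomes, had 2.99, 1.90 and 3.31 CPM in Control, 1.79, 2.33 and 5.30 CPM in Hyper, 15.3, 6.60 and 1.87 CPM in RemoLV, 9.51, 7.27, 5.78, 8.14 and 9.64 CPM in MYO and 18.1, 12.0, 12.4, 13.1 and 9.91 CPM in DOX. Every DOX and MYO library exceeded every Control and Hyper library. The DOX libraries also exceeded the MYO libraries, if only just, with 9.91 CPM in DOX replicate 5 and 9.64 CPM in MYO replicate 5. MKI67 was the only member to do so, and the share of all genes without such overlap was not counted. With the table names, which exchange DOX replicate 5 and MYO replicate 1, DOX and MYO overlapped. The log2 fold change of MKI67 was 2.27 (SE 0.48, adjusted p = 0.00116) in DOX, 1.56 (SE 0.47, adjusted p = 0.0128) in MYO and 1.55 (SE 0.51, adjusted p = 0.0179) in RemoLV, and 1.70 (SE 0.44, adjusted p = 0.00649) in DOX and MYO against Hyper. The call in MYO was lost without Control replicate 2, that in RemoLV without RemoLV replicate 1 or Control replicate 2, and the last without Hyper replicate 1. Under the names of the table MKI67 was not called in DOX or MYO, at 0.71 (SE 0.43, adjusted p = 0.226) and 0.03 (SE 0.43, adjusted p = 0.969).

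TOP2A, the topoisomerase that untangles sister chromatids, had 4.40, 3.33 and 4.66 CPM in Control, 3.02, 2.71 and 6.03 CPM in Hyper, 16.1, 9.02 and 3.39 CPM in RemoLV, 8.71, 10.5, 5.57, 7.70 and 9.48 CPM in MYO and 19.7, 13, 12.5, 17.1 and 7.56 CPM in DOX. All DOX and all MYO libraries exceeded Control, and MYO replicate 3 lay within the Hyper range. For TOP2A the log2 fold change was 1.76 (SE 0.41, adjusted p = 0.00232) in DOX, 1.03 (SE 0.40, adjusted p = 0.0473) in MYO and 1.21 (SE 0.44, adjusted p = 0.0293) in RemoLV, and 1.46 (SE 0.38, adjusted p = 0.00696) in DOX and MYO against Hyper. The MYO call was lost in 12 of the 19 fits without 1 library, the RemoLV call without RemoLV replicate 1 or any Control replicate, and the last without Hyper replicate 1.

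The condensin subunits, which fold the chromosomes for mitosis, split. NCAPH, of condensin I, had 2.02, 3.56 and 2.26 CPM in Control, 3.57, 3.31 and 4.96 CPM in Hyper, 6.69, 5.75 and 5.08 CPM in RemoLV, 5.70, 3.74, 3.17, 5.19 and 4.32 CPM in MYO and 5.87, 4.41, 4.40, 6.17 and 3.78 CPM in DOX, and it was higher in DOX at 0.91 (SE 0.25, adjusted p = 0.00828) and in RemoLV at 1.15 (SE 0.28, adjusted p = 0.00233). SMC2, the core subunit shared by both condensins, had 6.12, 8.08 and 6.00 CPM in Control, 10.9, 8.51 and 9.79 CPM in Hyper, 7.95, 8.91 and 8.38 CPM in RemoLV, 6.65, 8.59, 8.04, 9.52 and 8.21 CPM in MYO and 10.1, 10.8, 10.7, 9.47 and 7.31 CPM in DOX. Hyper was above Control in each library, and DOX in 4 of 5. For SMC2 the log2 fold change was 0.52 (SE 0.16, adjusted p = 0.0142) in DOX, lost without Control replicate 1 or 3. SMC4, the other core subunit and the partner of SMC2, had 33.3, 39.5 and 34.4 CPM in Control, 38.9, 38.1 and 34.3 CPM in Hyper, 27.9, 23.8 and 26.7 CPM in RemoLV, 21.9, 17.3, 19.4, 23.0 and 24.5 CPM in MYO and 30.2, 20.7, 24.7, 25.0 and 21.3 CPM in DOX. Every DOX, MYO and RemoLV library lay below every Control and Hyper library. The log2 fold change of SMC4 was -0.55 (SE 0.13, adjusted p = 0.00261) in DOX, -0.75 (SE 0.13, adjusted p = 0.000225) in MYO and -0.70 (SE 0.11, adjusted p = 0.000158) in DOX and MYO against Hyper, and these 3 calls were kept in each of the 19 fits without 1 library. In RemoLV it was -0.45 (SE 0.15, adjusted p = 0.0171) against Control, lost without RemoLV replicate 2 or Control replicate 2, and -0.50 (SE 0.15, adjusted p = 0.0118) against Hyper, lost without RemoLV replicate 2. Under the names of the table the value of SMC4 in DOX and MYO against Hyper was -0.71 (SE 0.11, adjusted p = 0.000131), whereas in DOX against Control it was -0.09 (SE 0.13, adjusted p = 0.63).

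NCAPG is also a condensin I subunit. NCAPG had 7.99, 2.85 and 10.7 CPM in Control, 2.47, 1.73 and 2.35 CPM in Hyper, 4.15, 2.42 and 1.16 CPM in RemoLV, 1.90, 2.08, 1.76, 2.25 and 3.64 CPM in MYO and 4.99, 3.73, 2.73, 3.06 and 2.10 CPM in DOX. Control replicates 1 and 3 stood above all other 17 libraries, and Control replicate 2 lay among the DOX values. The log2 fold change of NCAPG was -1.10 (SE 0.39, adjusted p = 0.0294) in DOX, -1.62 (SE 0.39, adjusted p = 0.00323) in MYO and -1.46 (SE 0.45, adjusted p = 0.0135) in RemoLV, and in Hyper it was -1.71 (SE 0.46, adjusted p = 0.127), not called. The DOX call was lost without Control replicate 1 or 3 or DOX replicate 3, 4 or 5, and the RemoLV call without RemoLV replicate 3 or Control replicate 3. Against Hyper, DOX and MYO differed by 0.34 (SE 0.39, adjusted p = 0.52) on the log2 scale.

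CENPE, the kinesin that carries chromosomes to the spindle equator, had the same 2 high libraries, with 7.09, 1.31 and 7.97 CPM in Control, 1.03, 1.05 and 1.88 CPM in Hyper, 4.79, 1.97 and 0.891 CPM in RemoLV, 1.82, 1.46, 1.90, 2.42 and 3.38 CPM in MYO and 3.99, 3.05, 3.13, 2.75 and 1.60 CPM in DOX. It was lower in MYO at -1.31 (SE 0.49, adjusted p = 0.0397), a call lost without MYO replicate 1, 2, 3 or 4 or Control replicate 1 or 3, and in DOX it was -0.89 (SE 0.49, adjusted p = 0.147), not called. Without Control replicate 2, which removes the low library, CENPE, NCAPG and NUSAP1 were called lower in Hyper and MCM7, NCAPH and SMC2 higher, where 9.08% of all genes were lower and 9.32% higher in the same fit. DESeq2 called CENPE and NCAPG lower in Hyper. NUSAP1, which binds spindle microtubules, had 32.4, 17.5 and 45.1 CPM in Control, 23.8, 19.4 and 19.4 CPM in Hyper, 22.2, 17.1 and 13.2 CPM in RemoLV, 13.2, 13.1, 13.2, 12.7 and 14.7 CPM in MYO and 21.0, 17.4, 15.6, 16.9 and 13.6 CPM in DOX. For NUSAP1 the log2 fold change was -0.90 (SE 0.22, adjusted p = 0.00311) in DOX, -1.24 (SE 0.22, adjusted p = 0.000268) in MYO and -0.85 (SE 0.25, adjusted p = 0.00912) in RemoLV, and the DOX call was lost without Control replicate 3 and the RemoLV call without Control replicate 3 or RemoLV replicate 3. All MYO libraries lay below all Control libraries, and in DOX, replicate 1 lay above Control replicate 2.

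**Figure D5:**
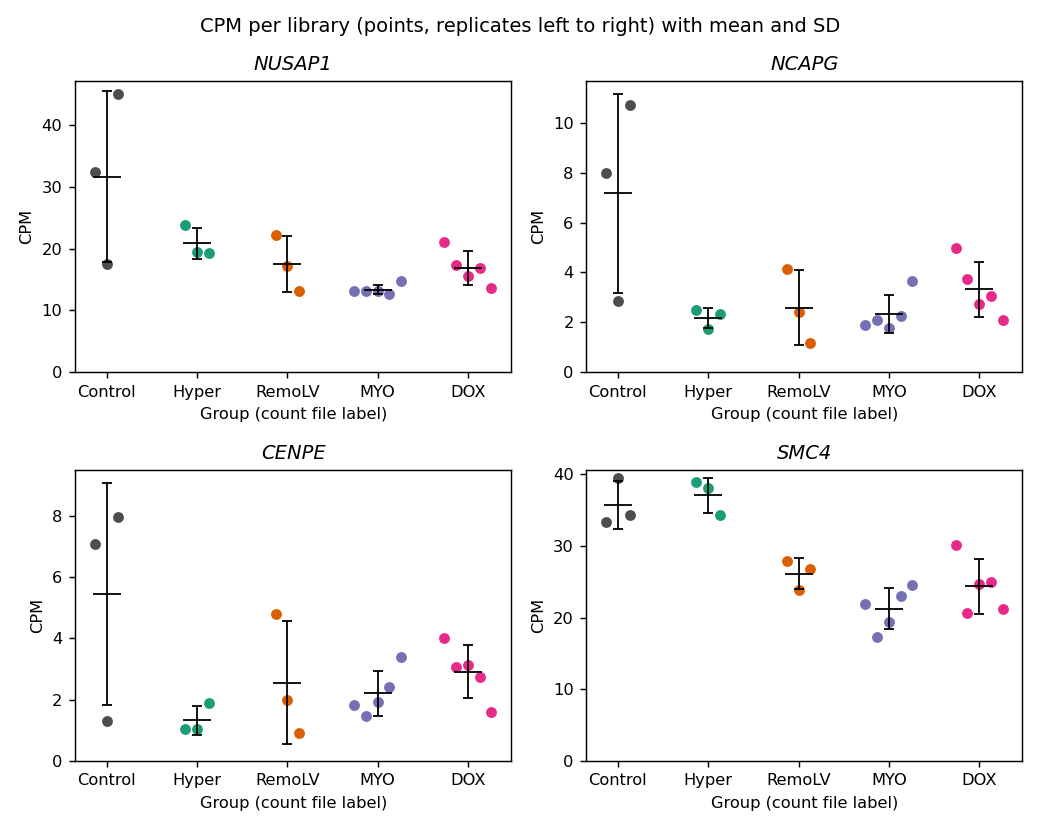
CPM of NUSAP1, NCAPG, CENPE and SMC4 in each library (points, replicates from left to right) with the group mean and SD (black), groups by count file label. For the first 3 genes Control replicates 1 and 3 stand apart from Control replicate 2 (NCAPG 7.99 and 10.7 against 2.85 CPM), whereas SMC4 is at 33.3 CPM or more in all Control and Hyper libraries and at 30.2 CPM or less elsewhere.

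The same 2 Control libraries differed from Control replicate 2 in red cell transcripts. The summed level of 5 listed erythroid genes, of which 4 were tested, was 354.5 CPM in Control replicate 1, 342 CPM in replicate 3 and 36.7 CPM in replicate 2, and lay between 8.57 and 198.5 CPM in the other 16 libraries. Of the 4, 4 were lower in DOX, 1 in MYO and 3 in RemoLV than in Control, where 21.1%, 21.7% and 24.0% of all genes were lower. The part of blood cells in the values of NCAPG, CENPE and NUSAP1 was not tested.

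DOX and MYO, which deliver the same drug free and in liposomes at matched dose and time, were compared directly. None of the 39 members was called in this comparison under either set of names (edgeR with Benjamini-Hochberg adjustment, all genes 0% in both directions). DESeq2 also called none, against 0% of all genes higher and 0.0104% lower. Before adjustment 3 members (PCNA, BUB1 and TOP2A) had a p under 0.05 upwards in DOX and 0 downwards, against 3.95% and 3.14% of all genes. With the table names these numbers were 11 and 0, against 4.16% and 3.92% of all genes. The median log2 fold change of the members was 0.41, against 0.00 over all genes, and 37 of the 39 values were positive, though members that move together are not independent. For MKI67 the difference was 0.70 (SE 0.37, adjusted p = 0.718) on the log2 scale, with a 95% interval from -0.06 to 1.47. For TYMS it was 0.13 (SE 0.31, adjusted p = 0.946), with an interval from -0.52 to 0.78, and for MCM2 0.48 (SE 0.33, adjusted p = 0.785), with an interval from -0.22 to 1.18. Differences within these intervals are not excluded by 5 libraries a group.

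RemoLV and Hyper were also compared. By count file label 6 members were higher and 1 lower in RemoLV (all genes 17.0% and 18.6%), with a median log2 fold change of 0.66 against 0.01. The 6 were CDC20, KIF20A, KIF2C, PRC1, MKI67 and TOP2A, and SMC4 was the lower one. CDC20 was higher by 1.53 (SE 0.46, adjusted p = 0.0146) on the log2 scale and TOP2A by 1.28 (SE 0.44, adjusted p = 0.0296). Without RemoLV replicate 1, Hyper replicate 1 or Hyper replicate 2 none of the 6 calls was left, and under the names of the table no member was called (all genes 0% in both directions). With RemoLV and Hyper alone in the fit, fewer members were higher, as given in the last section.

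Genes outside the list that belong to the same pathways were counted from lists, with the shares of all genes given above as the background. Of 45 other mitotic genes, 24 were higher and 0 lower in DOX than in Control, 17 and 0 in MYO, 15 and 1 in RemoLV, and 15 and 0 in DOX and MYO against Hyper, with a median log2 fold change of 1.12 in DOX. ESPL1, the separase that cuts cohesin, had a mean of 5.20 CPM in DOX and 0.786 CPM in Control, a log2 fold change of 2.73 (SE 0.44, adjusted p = 0.00012). KIF22, a kinesin that binds chromosome arms, had 1.99 (SE 0.33, adjusted p = 0.000185) in DOX and 1.82 (SE 0.31, adjusted p = 0.000285) in DOX and MYO against Hyper. CDCA8, a subunit of the passenger complex, had 2.42 (SE 0.47, adjusted p = 0.000604) in DOX.

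Of 19 genes that license and fire origins, 7 were higher and 1 lower in DOX, 5 and 1 in MYO, 2 and 2 in RemoLV, and 5 and 0 in DOX and MYO against Hyper. ORC1, of the origin recognition complex, had a log2 fold change of 2.61 (SE 0.50, adjusted p = 0.000566) in DOX. Of 27 genes of replication polymerases, forks and nucleotide supply, 8 were higher and 4 lower in DOX, 6 and 4 in MYO, 6 and 6 in RemoLV, and 4 and 6 in DOX and MYO against Hyper. UHRF1, which maintains DNA methylation at forks, had 3.05 (SE 0.47, adjusted p = 8.96e-05) in DOX, and POLE, the leading strand polymerase, had 2.75 (SE 0.47, adjusted p = 0.000224).

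Of 15 E2F and MuvB factors, 5 were higher and 5 lower in DOX, 6 and 3 in MYO, 4 and 2 in RemoLV, and 5 and 2 in DOX and MYO against Hyper. The cell cycle activators E2F1 and E2F2 and the MuvB partner MYBL2 were higher in DOX, at 2.04 (SE 0.40, adjusted p = 0.000615), 2.67 (SE 0.49, adjusted p = 0.000382) and 2.10 (SE 0.40, adjusted p = 0.000486). E2F1 was also higher in DOX and MYO against Hyper, at 1.67 (SE 0.37, adjusted p = 0.00211). Of 15 genes of the anaphase-promoting complex, 2 were higher and 5 lower in DOX and 2 and 3 in DOX and MYO against Hyper, and the small subunit ANAPC13 had -0.97 (SE 0.11, adjusted p = 5.39e-06) in DOX.

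Of 13 G1 cyclins, kinases and their activators, 1 was higher and 4 lower in DOX, 2 and 4 in MYO, 2 and 4 in RemoLV, and 0 and 3 in DOX and MYO against Hyper. CDK6, a kinase of G1 progression, had a mean of 24.2 CPM in Control, 20.3 CPM in Hyper, 2.05 CPM in DOX, 2.18 CPM in MYO and 2.25 CPM in RemoLV. Its log2 fold change was -3.56 (SE 0.31, adjusted p = 2.48e-07) in DOX against Control and -3.26 (SE 0.25, adjusted p = 3.2e-08) in DOX and MYO against Hyper. CDC25B, a phosphatase that activates the cyclin-dependent kinases, was higher in DOX at 1.30 (SE 0.21, adjusted p = 0.000127). Of 14 inhibitors and brakes, 1 was higher and 5 lower in DOX, 1 and 7 in MYO, 2 and 3 in RemoLV, and 1 and 2 in DOX and MYO against Hyper. The antiproliferative BTG1 and the inhibitor CDKN1B (p27) were lower in DOX, at -0.64 (SE 0.16, adjusted p = 0.00383) and -0.51 (SE 0.14, adjusted p = 0.00703). CDKN1A (p21) was higher in DOX and MYO against Hyper at 1.60 (SE 0.44, adjusted p = 0.01). In Hyper against Control none of the genes of these 7 lists was called.

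The genes outside the list whose log2 CPM followed the mean z-score of the members most closely over the 19 libraries were KIF15 (Pearson r = 0.97), DLGAP5 (0.94), SHCBP1 (0.93), NDC80 (0.93), TK1 (0.92), DIAPH3 (0.92), KIFC1 (0.91), NEK2 (0.91), IQGAP3 (0.91) and POLE (0.91), as a description across libraries that share groups and experiments. Among the members, KIF2C (r = 0.95) and BUB1B (0.94) followed the mean of the others most closely. SMC4 (-0.47) and NUSAP1 (-0.35) ran against it, and NCAPG (0.04), MCM7 (0.23) and CENPE (0.27) were nearly unrelated to it.

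Markers of other cell types moved with some groups. The summed level of 4 leukocyte markers found of 5 listed was 70.7 to 81.4 CPM in Control, 61.3 to 83.5 in Hyper, 70.8 to 100 in RemoLV, 66.0 to 116 in MYO and 75.5 to 177 in DOX, and 3 of the 4 were higher in DOX. In DOX this sum was 75.5, 78.8, 132, 177 and 175 CPM in the order of the replicates, beside 38, 35, 34, 37 and 15 members above their mean. In the same order, T cell markers summed to 8.55, 9.24, 18.9, 27.7 and 31.3 CPM and macrophage markers to 244, 255, 351, 517 and 248 CPM. Endothelial markers summed to 952, 1065, 1098, 1106 and 800 CPM, and smooth muscle and pericyte markers to 1240, 852, 760, 838 and 643 CPM. Of 7 macrophage markers, 5 were higher and 1 lower in DOX, 1 and 1 in MYO, and 4 and 1 in RemoLV, against the shares of all genes given above (20.7% to 24.0% in either direction). In DOX and MYO against Hyper (all genes 15.8% and 16.9%), 4 macrophage markers were higher and 1 lower, and of 6 endothelial markers 3 were higher and 1 lower. Against Control the endothelial markers had 2 higher and 2 lower in DOX, 1 and 1 in MYO, and 0 and 2 in RemoLV. Of 5 T cell markers, 1 was higher in DOX and 1 in MYO, close to the shares of all genes, and none was lower. Of 5 listed B and plasma cell markers 2 were tested, and 1 was higher in each of DOX, MYO and RemoLV. Of 6 smooth muscle and pericyte markers, 1 was higher and 1 lower in each of these groups.

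The summed level of 6 fibroblast markers was 2035 to 3432 CPM in Control, 1535 to 3823 in Hyper, 4529 to 6606 in MYO, 4721 to 7020 in DOX and 10670 to 12330 in RemoLV. Of the 6, 3 were higher and 0 lower in DOX, 3 and 1 in MYO, and 4 and 0 in RemoLV, and 3 and 0 in DOX and MYO against Hyper. Most of the sum came from the collagens COL1A1, COL1A2 and COL3A1, whereas DCN had a mean of 416 CPM in DOX and 436 CPM in Control, and PDGFRA 10.7 CPM in DOX, 8.12 CPM in MYO and 18.6 CPM in Control. In RemoLV the fibroblast sum was 12330, 10670 and 10830 CPM in the order of the replicates, beside 36, 23 and 6 members above their mean. In that order the endothelial sum was 786, 722 and 720 CPM and the leukocyte sum 100, 70.8 and 93.7 CPM. Of 6 cardiomyocyte markers found of 8 listed, 2 were higher and 4 lower in DOX, 1 and 4 in MYO, and 1 and 5 in RemoLV, and their summed level was 28480 to 37680 CPM in Control and 26210 to 27850 CPM in RemoLV. The part of these cell types, and of atrial muscle in the libraries labelled RemoLV, in the levels of the members was not tested.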

How the data were processed

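Polyadenylated RNA was sequenced in 19 myocardial libraries. By the submitters' processing notes and the methods of the study, the authors aligned reads with STAR to Sscrofa11.1 and used HTSeq 0.11.1 to count reads on Ensembl genes, and the deposited count files hold raw whole-number counts. A second deposited file lists 14744 genes with log2-scale expression per sample, used here to find members by symbol and to compare sample names. It also holds the authors' own fold changes and adjusted p-values, which were not used.

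Counts were scaled by TMM and filtered by filterByExpr given the groups. One model of the 5 groups was fitted with the quasi-likelihood test of edgeR 4.0.16 (R 4.3.3, limma 3.58.1), and p-values were adjusted by Benjamini and Hochberg over 13552 genes. A member was called at an adjusted p of at most 0.05. SE is the absolute log2 fold change divided by the square root of F. In all, 7 comparisons were made. Alternatives were the names of the authors' table, DESeq2 1.42.0, other size factors and filters, a replicate block, the compared groups alone, and leaving out libraries. Further steps used Python 3.11.15 with pandas 2.3.3 and numpy 2.4.6. Replicates were separate pigs.

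Totals of 9527710 to 20370209 counts limit the precision for low genes, and a count of 0 allows up to 3 counts, which covers counting error only. The 41 members, their roles and the pathway and marker lists were chosen with earlier results of these data known. By the rule for named genes, all members were accounted for, with values per library for 8 genes (MKI67, TOP2A, CDK1, CCNB1, FOXM1, PCNA, MCM2 and TYMS) and for every member called, and at most 3 called genes were named per pathway list and comparison. The rule gave SE and adjusted p to at most 3 members per role and comparison, and these are given here for more. BIRC5 and TTK, which were not called, were added after their values were seen. Promoter windows came from the RefSeq annotation of Sscrofa11.1.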

Additional observations from a re-analysis of the deposited data

Results flagged for a closer look

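In 4 of the 80 groups of 5 libraries that were checked (40 features in DOX and MYO), 1 library stood far from the others by Dixon's criterion, which chance alone meets in about 1 in 20 groups. MCM6 was at 26.7 CPM in MYO replicate 2, with the nearest other library at 15.9 CPM. TYMS was at 18.2 CPM in DOX replicate 1, with the nearest at 9.75 CPM. In MYO replicate 5, NUSAP1 was at 14.7 CPM, with the nearest at 13.2 CPM, and NCAPG was at 3.64 CPM, with the nearest at 2.25 CPM. That library also held the highest erythroid marker sum of MYO, 198.5 CPM, and the part of this in both values was not tested.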

How the results depend on the processing

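The naming of the libraries changed most. Under the names of the authors' table, 6 members were higher and 1 lower in DOX, 2 and 0 in MYO, 3 and 19 in RemoLV and 1 and 7 in Hyper, each against Control, and 0 and 0 in RemoLV against Hyper, while DOX and MYO against Hyper gave 21 and 1. Among members called under either set of names, the log2 fold change changed sign for 22 in RemoLV against Control (MCM2 -1.23, MCM3 -1.09, MCM7 -0.74, TYMS -1.19, CCNB1 -1.22, FOXM1 -1.48, AURKA -1.18, AURKB -0.91, CDC20 -2.16, UBE2C -1.93, BUB1 -1.23, BUB1B -1.71, KIF20A -1.87, KIF2C -1.27, NUSAP1 0.85, PRC1 -1.75, ANLN -0.99, MKI67 -1.55, TOP2A -1.21, NCAPG 1.46, NCAPH -1.15 and SMC4 0.45), which follows from the exchange of both groups. It did so for 6 in DOX against Control (MCM7 -0.50, AURKA -0.35, AURKB -0.27, PRC1 -0.16, NCAPG 0.34 and NCAPH -0.14), 9 in MYO against Control (AURKB -0.11, CDC20 -0.26, UBE2C -0.11, BUB1B -0.24, KIF20A -0.27, KIF2C -0.19, PRC1 -0.50, TOP2A -0.22 and NCAPH -0.54), 4 in Hyper against Control (CDC20 -1.53, KIF20A -1.40, PRC1 -1.26 and MKI67 -1.34) and 4 in RemoLV against Hyper (CDC20 -0.63, KIF20A -0.47, PRC1 -0.49 and MKI67 -0.21). Members called under neither also changed sign, and all 39 did so in RemoLV against Control. By the same exchange, Hyper against Control under the names of the table compares the libraries of Hyper against RemoLV by count file label. RemoLV against Hyper likewise compares those of Control against Hyper. No other alternative changed the sign of a called member.

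With the labels of the count files and 1 library left out, the number of members higher lay between 20 and 31 in DOX, 7 and 19 in MYO, 5 and 23 in RemoLV and 0 and 3 in Hyper against Control, 0 and 0 in DOX against MYO, 0 and 10 in RemoLV against Hyper, and 4 and 24 in DOX and MYO against Hyper. The number lower lay between 1 and 4, 3 and 4, 1 and 4, 0 and 3, 0 and 0, 0 and 1, and 1 and 2, in this order. Under the names of the table, a check chosen after seeing the data, the same omissions gave 4 to 13 higher in DOX (13 without the library labelled RemoLV replicate 1), 1 to 3 higher in MYO, 7 to 24 lower in RemoLV, 0 (without RemoLV replicate 1, Hyper replicate 1 or Hyper replicate 2) to 14 lower in Hyper (without Hyper replicate 3), and 4 (without Hyper replicate 1) to 24 higher in DOX and MYO against Hyper, with 8 without Hyper replicate 2.

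With the replicate number as a block, 9 members were higher in MYO (all genes 17.3%), 2 in RemoLV against Hyper (16%) and 10 in DOX and MYO against Hyper (12.8%), and the other counts stayed within 1.5 times. The numbers did not pair the libraries, since the correlation of deviations from the group means over 32 pairs with the same number ran from -0.246 to 0.242 (median 0.00687), 4 pairs exceeded 0.1 and 4 of 19 libraries correlated best with their own number. With the compared groups alone, 7 members were higher and 1 lower in RemoLV (all genes 18.9% and 20.1%), 1 was higher in RemoLV against Hyper (16.5%) and 2 were lower in DOX and MYO against Hyper (17.9%). DESeq2 called 2 members lower in Hyper (CENPE and NCAPG). Scaling on raw library totals put the mean summed level at 153.3 CPM in Control, 172.7 in Hyper, 253.4 in MYO, 271.9 in RemoLV and 314.6 in DOX. RLE size factors, a filter of 10 counts in 3 libraries, no filter, and a fit without the 3 libraries labelled RemoLV kept every count of members within 1.5 times. Of 7287 values of single members under the alternatives, 6728 kept their side of the threshold, with the same direction where called, 385 lost and 129 gained a call in the same direction, and 45 changed sign with a call on either side. With 3 libraries a group and as few as 2 counts for a member, differences of low members against Control, RemoLV or Hyper were limited by depth and number.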
